A study of Mus musculus with 9 samples.

Results

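The 10 transcription factors described here specify and pattern the mesenchyme of the lung, the embryonic tissue from which lung fibroblasts and smooth muscle arise. They are the T-box factors Tbx2, Tbx3, Tbx4, and Tbx5, the forkhead factor Foxf1, the basic helix-loop-helix factor Tcf21, the homeobox factors Hoxa5, Hoxb5, and Meox2, and the zinc finger factor Gata6. They were chosen by gene symbol, and all 10 were found among the 43346 genes of the deposited table and passed the filter on low counts. RNA-Seq was carried out on lung fibroblasts sorted by FACS as Col1a1-GFP+ cells negative for EpCAM, CD45, and CD31, that is, cells with an active collagen I promoter from which epithelial, hematopoietic, and endothelial cells were removed. The mice were male Col1a1-GFP transgenic mice on a FVB background, given as 72 weeks old in the sample labels and as 18 months old in the study's methods. The 4 aged sham mice received saline and the 5 aged bleo mice received bleomycin, both into the trachea, and lungs were taken on day 30. Bleomycin is a drug that injures the lung epithelium and is followed by fibrosis. Both groups carried the reporter transgene, and cells in which its collagen promoter was silent were not sampled. In bulk RNA of this kind, fewer cells of a type and less RNA per cell cannot be told apart.

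In the developing lung, TBX4 and TBX5 act in the mesenchyme to maintain Fgf10, the growth factor toward which the epithelium branches, while TBX2 and TBX3 are mainly repressors that keep the mesenchyme dividing by holding down inhibitors of the cell cycle. FOXF1 is a target of hedgehog signals that reach the mesenchyme from the epithelium. TCF21 marks mesenchymal progenitors and lipid-storing fibroblasts, and HOX proteins give cells their position along the body axis, with HOXA5 and HOXB5 acting at the level of the lung. Fibroblasts of the adult lung keep many of these factors.

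Among the members, 3 pairs are paralogs, genes of a common origin, and the results on them depend on whether their reads can be told apart. For each pair, the most similar stretch of 120 coding bases lying in 1 exon of both genes was found in the GENCODE M21 annotation of GRCm38. Bases are printed in lower case where the paralogs share them and in capitals where they differ, 5′ to 3′ on the coding strand. The Tbx2 stretch lies at chr11:85833378-85833497 on the plus strand and the Tbx3 stretch at chr5:119672281-119672400 on the plus strand.
Tbx2: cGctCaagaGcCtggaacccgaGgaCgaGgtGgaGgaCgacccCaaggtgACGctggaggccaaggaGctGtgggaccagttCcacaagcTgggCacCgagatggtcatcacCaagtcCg
Tbx3: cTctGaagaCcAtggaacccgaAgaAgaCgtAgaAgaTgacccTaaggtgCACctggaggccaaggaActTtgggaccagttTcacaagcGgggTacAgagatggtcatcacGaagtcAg
These stretches differed at 22 of 120 bases. The Tbx4 stretch lies at chr11:85899766-85899885 and the Tbx5 stretch at chr5:119841769-119841888, both on the plus strand.
Tbx4: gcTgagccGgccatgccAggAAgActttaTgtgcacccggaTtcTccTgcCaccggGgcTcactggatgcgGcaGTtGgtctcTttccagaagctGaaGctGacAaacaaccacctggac
Tbx5: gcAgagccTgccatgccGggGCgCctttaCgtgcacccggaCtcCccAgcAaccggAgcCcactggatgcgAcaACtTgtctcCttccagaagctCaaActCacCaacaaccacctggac
These also differed at 22 of 120 bases. The Hoxa5 stretch lies at chr6:52202689-52202808 on the minus strand and the Hoxb5 stretch at chr11:96304910-96305029 on the plus strand.
Hoxa5: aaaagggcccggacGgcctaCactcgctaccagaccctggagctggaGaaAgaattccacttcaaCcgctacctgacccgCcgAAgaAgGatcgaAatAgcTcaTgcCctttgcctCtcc
Hoxb5: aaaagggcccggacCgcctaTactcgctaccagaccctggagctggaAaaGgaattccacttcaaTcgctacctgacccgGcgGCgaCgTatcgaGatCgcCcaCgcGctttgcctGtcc
These differed at 16 of 120 bases and were thus 86.7% identical, against 81.7% for both T-box pairs. The longest run of bases shared without a difference by the whole transcripts was 14 bases for Tbx2 and Tbx3, 23 bases for Tbx4 and Tbx5, and 26 bases for Hoxa5 and Hoxb5.

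The counts summed to between 49921946 and 68260600 per library, and the members held between 8646 (Hoxb5) and 86562 (Tbx2) counts over the 9 libraries. Levels are given as CPM, counts scaled to library size after TMM normalization. The leukocyte markers summed to between 207 and 602 CPM in aged sham and between 504 and 1838 CPM in aged bleo. Aged bleo 4 was the highest. Of these 8 markers, 3 rose (Lyz2, Cd68, and Laptm5) and 5 were not called. Lyz2 rose from 117 ± 33.6 to 628 ± 303 CPM. Ptprc, the gene of the CD45 used in the sort, was at 87.0 ± 59.1 and 65.0 ± 66.3 CPM and was not called. The 8 epithelial markers summed to between 13.4 and 111 CPM in aged sham and between 16.7 and 61.1 CPM in aged bleo, with 2 lower, Ager (19.8 ± 11.6 to 1.98 ± 0.535 CPM) and Nkx2-1 (0.825 ± 0.461 to 0.348 ± 0.114 CPM), and none higher. Epcam, used in the sort, was at 0.593 ± 0.141 CPM (SD, n = 4) in sham and 0.668 ± 0.316 CPM (SD, n = 5) in bleo libraries, and Sftpc reached 57.9 CPM in 1 sham library. The 8 endothelial markers, of which 7 were tested, summed to between 160 and 195 CPM in aged sham and between 25.3 and 68.6 CPM in aged bleo. Most of that sum was Tek, which fell from 161 ± 12.9 to 28.9 ± 18.8 CPM, while Kdr (3.25 ± 0.557 to 4.97 ± 1.22 CPM) and Egfl7 (1.01 ± 0.299 to 1.84 ± 0.673 CPM) rose. The defining endothelial marker Cdh5 was low and not called (1.67 ± 0.653 and 1.64 ± 0.416 CPM). Of the fibroblast markers, all 8 were tested and present, with 4 higher, 1 lower, and 3 not called. Col1a1, also a fibrotic marker, was at 4154 ± 407 CPM in aged sham against 20853 ± 4970 CPM in aged bleo. Dcn, also an adventitial marker, fell from 8122 ± 558 to 2795 ± 1249 CPM. All 7 adventitial fibroblast markers fell and all 6 fibrotic fibroblast markers rose in aged bleo. The sum of the adventitial markers was 16845 to 19189 CPM in aged sham against 2748 to 9733 CPM in aged bleo, the lowest in aged bleo 4 and 5. The part of these shifts in the results on the members was not tested. With any 1 library left out, aged bleo 4 included, 3 members were called higher and 2 lower, as with all 9.

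The 10 factors did not move together. A gene was called where its FDR, the p-value of edgeR's quasi-likelihood test with Benjamini-Hochberg adjustment across all 16877 tested genes, was under 0.10 and its fold change over 1.5. Tbx2, Tbx3, and Tbx4 were higher in aged bleo, Tcf21 and Gata6 were lower, and Tbx5, Foxf1, Hoxa5, Hoxb5, and Meox2 were not called. Among all genes tested, 23.8% were called, 12.3% as higher and 11.5% as lower. The share of 5 of 10 members is above this, with 3 in 1 direction and 2 in the other. The members were chosen with earlier results of these data known, so this comparison is a description and no test of the set. The same 5 members were those whose groups did not overlap in CPM, against 32.2% of all genes tested. The median log2 fold change of the members was 0.13, and that of all genes tested was 0.0064. The median of the absolute log2 fold change was 0.68 over the members and 0.29 over all genes tested.

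**Figure D1:**
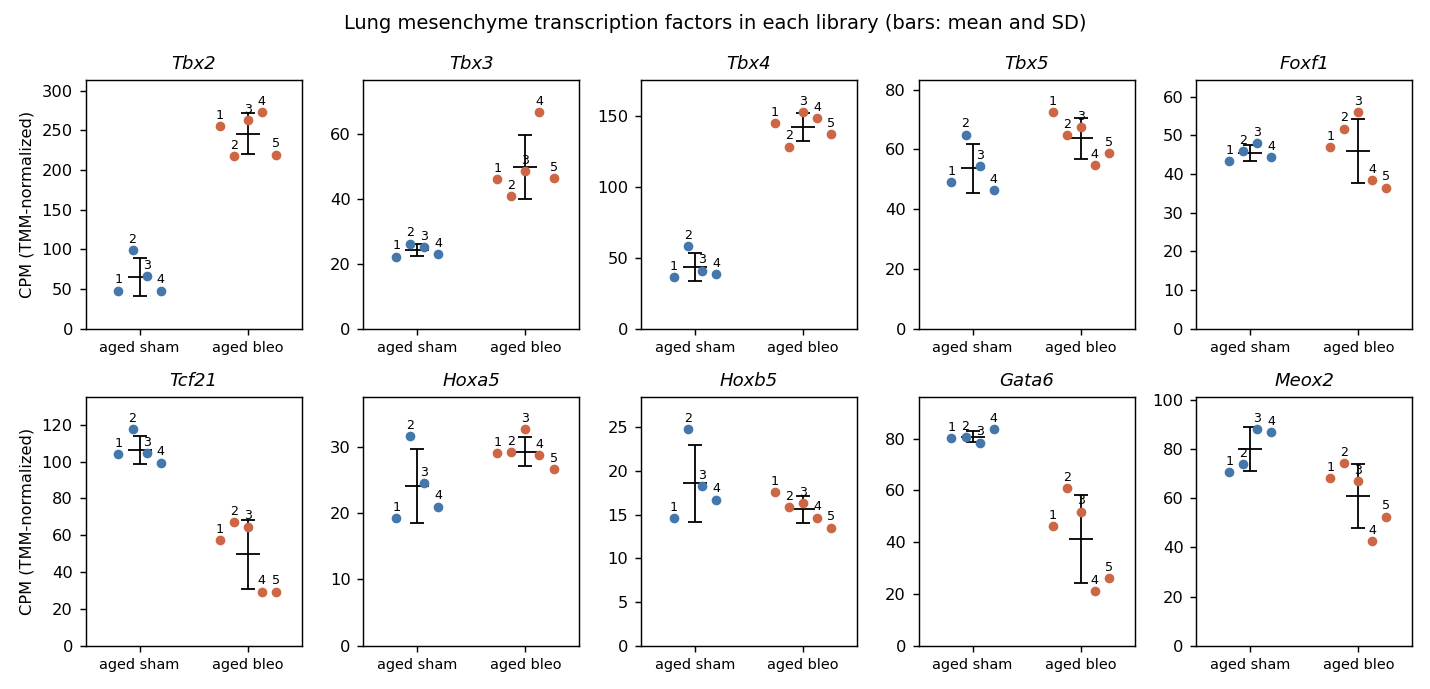
TMM-normalized CPM (vertical axis, starting at 0) of each factor in the 4 aged sham (blue) and 5 aged bleo (orange) libraries, numbered by replicate, with the mean and SD in black. Tbx2, Tbx3, and Tbx4 lie above and Tcf21 and Gata6 below aged sham in every aged bleo library, and aged bleo 4 and 5 are the lowest in Tcf21, Gata6, and Meox2.

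Among the T-box repressors, Tbx2 had the largest fold change of the members. Tbx2 (ENSMUSG00000000093, chr11:85832551-85841948) stood at 47.9, 98.6, 66.6, and 47.9 CPM in aged sham 1 to 4 and at 255.7, 217.6, 263.1, 272.8, and 219.2 CPM in aged bleo 1 to 5. The lowest aged bleo library was thus 2.21 times the highest aged sham library, which was aged sham 2. The means were 65.2 ± 23.9 CPM (SD, n = 4) and 246 ± 25.6 CPM (SD, n = 5), with a log2 fold change of 1.91 (SE 0.22, FDR 0.000391). Tbx3 (ENSMUSG00000018604, chr5:119670669-119684724), the paralog with which Tbx2 shares many targets, stood at 22.2, 26.2, 25.1, and 23.0 CPM in aged sham and at 46.2, 40.8, 48.5, 66.7, and 46.4 CPM in aged bleo. Every aged bleo library was above every sham library, and aged bleo 4 was the highest. The means were 24.1 ± 1.84 CPM and 49.7 ± 9.90 CPM, with a log2 fold change of 1.04 (SE 0.14, FDR 0.000813).

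The T-box activators Tbx4 and Tbx5 went apart. Tbx4 (ENSMUSG00000000094, chr11:85886422-85916097), which marks lung mesenchyme from its earliest stage, stood at 36.5, 58.2, 40.9, and 38.4 CPM in aged sham and at 145.0, 128.5, 152.9, 148.5, and 137.5 CPM in aged bleo. The aged bleo libraries lay close together, with a coefficient of variation of 6.76%, and all lay above aged sham. The means were 43.5 ± 9.97 CPM (SD, n = 4) and 142 ± 9.63 CPM (SD, n = 5), with a log2 fold change of 1.71 (SE 0.14, FDR 6.71e-05). Tbx5 (ENSMUSG00000018263, chr5:119834663-119885218), which acts with Tbx4 in lung branching, stood at 49.1, 64.9, 54.5, and 46.3 CPM in aged sham and at 72.4, 64.7, 67.4, 54.7, and 58.8 CPM in aged bleo. The groups overlapped, since aged sham 2 was above 3 of the aged bleo libraries. Its log2 fold change of 0.24 did not pass (FDR 0.132), and its 95% interval ran from -0.02 to 0.51.

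The 4 T-box members form 2 pairs of neighbours. Tbx2 and Tbx4 lie 44.5 kb apart on chromosome 11, with 1 gene of 63 counts between them in the table, and Tbx3 and Tbx5 lie 150 kb apart on chromosome 5, with 1 gene of 36 counts between them. Both genes of the first pair rose, whereas in the second pair Tbx3 rose and Tbx5 did not pass. Over the 9 libraries, the member whose profile was nearest to Tbx2 was Tbx4, at a root mean square difference of 0.18 in centred log2 CPM, and only 2 of all tested genes were nearer to Tbx2. The nearest of all genes to both Tbx2 and Tbx4 was Fam210b (log2 fold change 1.85). Tbx3 had a less similar counterpart among the members, with 2246 tested genes nearer to it than Tbx4. These profiles span both groups, so nearness in part restates a like log2 fold change.

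Genes that lie beside or overlap the T-box members were examined because the library kit does not mark strand. Reads of overlapping genes on opposite strands therefore cannot be told apart. The noncoding gene 2610027K06Rik, which lies 328 bases from the Tbx2 gene, rose from 4.57 ± 1.35 to 7.07 ± 0.83 CPM (log2 fold change 0.63, FDR 0.0301). Its groups overlapped, and its call was lost without aged sham 1 (0.57) or aged sham 4 (0.52). The antisense gene Tbx3os1, which overlaps the start of Tbx3, was at 2.21 ± 0.208 and 3.27 ± 0.300 CPM with no overlap between the groups, at a log2 fold change of 0.57 that stayed under the fold threshold (FDR 0.0115). It was past the threshold without aged sham 1 (0.63) or aged bleo 5 (0.61), with no filter on low counts (0.59), and with a replicate block (0.61). Both were far below the level of the T-box gene beside them.

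**Figure D2:**
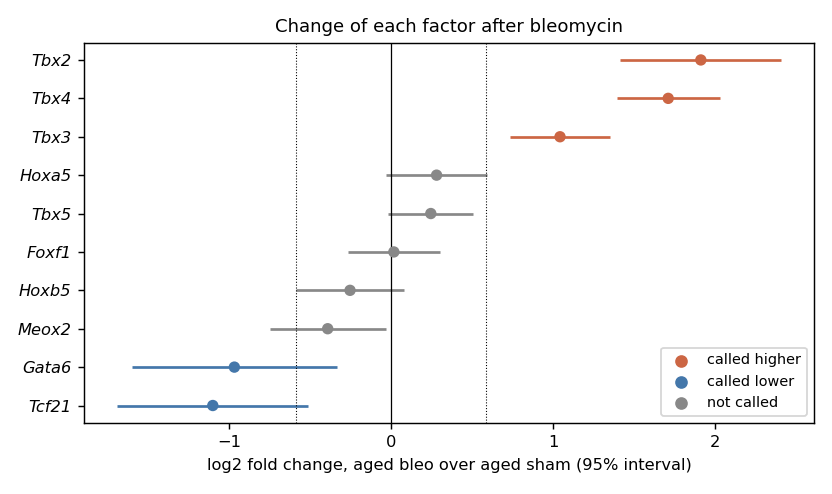
log2 fold change of each factor (points, aged bleo over aged sham) with its 95% interval (lines) from edgeR, ordered by size; dotted lines mark a fold change of 1.5 in each direction. Tbx2, Tbx4, and Tbx3 lie above and Gata6 and Tcf21 below the dotted lines, and the intervals of Hoxa5, Tbx5, Foxf1, and Hoxb5 include 0.

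Tcf21 and Gata6 were the 2 factors that fell. Tcf21 (ENSMUSG00000045680, chr10:22817279-22820128), a basic helix-loop-helix factor of lipid-storing alveolar fibroblasts, stood at 104.1, 117.5, 104.7, and 99.4 CPM in aged sham and at 57.3, 67.2, 64.7, 29.4, and 29.4 CPM in aged bleo. All aged bleo libraries were below aged sham, and aged bleo 4 and 5 lay below the other 3. The means were 106 ± 7.75 CPM (SD, n = 4) and 49.6 ± 18.8 CPM (SD, n = 5), a 2.15-fold lower level in aged bleo (log2 fold change -1.10, SE 0.26, FDR 0.0121). Gata6 (ENSMUSG00000005836), a factor of mesoderm and endoderm that also acts in smooth muscle, stood at 80.1, 80.6, 78.5, and 83.6 CPM in aged sham and at 46.2, 60.8, 51.8, 21.1, and 26.2 CPM in aged bleo. Aged sham varied little, with a coefficient of variation of 2.63%, while that of aged bleo was 41.2%. The means were 80.7 ± 2.12 CPM and 41.2 ± 17.0 CPM, a 1.96-fold lower level in aged bleo (log2 fold change -0.97, SE 0.28, FDR 0.0261).

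In aged bleo, Tcf21 and Gata6 shared libraries 4 and 5 as their lowest and library 2 as their highest. Each was the other's nearest member, at a root mean square difference of 0.13 in centred log2 CPM over the 9 libraries, a measure that includes the group difference. There were 16 tested genes nearer to Tcf21 and 38 nearer to Gata6. The nearest genes were Tril for Tcf21 (log2 fold change -0.95) and Steap3 for Gata6 (-0.97). Aged bleo 4 and 5, the libraries lowest in both, were also the lowest of aged bleo in the summed alveolar fibroblast markers, at 1103 and 1488 CPM against 2347 to 3350 CPM in aged bleo 1 to 3 and 3194 to 4833 CPM in aged sham. Of these 8 markers, 3 fell (Ces1d, Inmt, and Scn7a) and 1 rose (Npnt). Inmt was the largest part of the sham sum (sham mean 1984 CPM). Libraries 4 and 5 were also the lowest of aged bleo in the summed adventitial markers, with 2748 and 3284 CPM against 6974 CPM or more. All 7 adventitial markers fell. In libraries 4 and 5 the summed endothelial markers were lowest of aged bleo too, and the summed fibrotic and leukocyte markers highest. The smooth muscle and pericyte markers summed to 3431, 3578, 3145, 2395, and 3267 CPM in aged bleo 1 to 5, against 3077 to 6279 CPM in aged sham. Of these 8 markers, 2 fell (Myh11 and Cnn1), 1 rose (Notch3), and 5 were not called. The mesothelial markers, none called, summed to 54.8, 49.1, 126, 35.4, and 63.5 CPM in aged bleo 1 to 5. Whether the fall of Tcf21 or Gata6 is tied to any of these lists was not tested. The noncoding gene 1010001N08Rik, which overlaps the start of Gata6, was lower as well (5.99 ± 0.752 to 2.95 ± 1.33 CPM, log2 fold change -1.02, FDR 0.0366), and its call was lost with a replicate block (FDR 0.106).

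Foxf1, the forkhead factor downstream of hedgehog, showed no detectable change in level but a wider spread. Foxf1 (ENSMUSG00000042812, chr8:121084386-121088144) stood at 43.3, 45.9, 48.0, and 44.3 CPM in aged sham and at 46.9, 51.7, 56.0, 38.5, and 36.5 CPM in aged bleo. The aged sham range lay within the aged bleo range. The log2 fold change was 0.02 (FDR 0.933), with a 95% interval from -0.27 to 0.30, so that changes of over 1.5-fold in either direction lay outside it. The noncoding gene Fendrr, which lies 1276 bases from Foxf1, was at 30.9 ± 3.05 and 25.1 ± 4.44 CPM and was not called (log2 fold change -0.30, FDR 0.107). Foxf1 is also overlapped by the read-through gene Gm20388, which was not called either (282 ± 16.8 and 256 ± 21.3 CPM). Meox2 (ENSMUSG00000036144, chr12:37108540-37179534), a mesodermal homeobox factor known for restraining cell growth, stood at 70.6, 73.9, 87.9, and 86.9 CPM in aged sham and at 68.0, 74.3, 66.9, 42.5, and 52.5 CPM in aged bleo. Its groups overlapped through aged bleo 2, and its log2 fold change of -0.39 had an FDR of 0.0829 and stayed under the fold threshold, with an interval from -0.75 to -0.03.

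Hoxa5 and Hoxb5, members of 1 paralog group on 2 clusters, were not called and had estimates of opposite sign. Hoxa5 (ENSMUSG00000038253, chr6:52201754-52204587), whose loss impairs formation of the trachea and lung, stood at 19.2, 31.7, 24.5, and 21.0 CPM in aged sham and at 29.1, 29.2, 32.6, 28.7, and 26.6 CPM in aged bleo. Aged sham 2 lay within the aged bleo range and the other 3 sham libraries below it, and the log2 fold change was 0.28 (FDR 0.144, 95% interval -0.03 to 0.59). Hoxb5 (ENSMUSG00000038700, chr11:96303336-96306121) stood at 14.6, 24.8, 18.3, and 16.7 CPM in aged sham and at 17.6, 15.9, 16.3, 14.7, and 13.5 CPM in aged bleo. The groups overlapped, and the log2 fold change was -0.25 (FDR 0.213, 95% interval -0.59 to 0.08). For both genes, aged sham 2 was the highest sham library, as it was in 7 of 10 members and in 13 of 16 tested Hox genes, and no member or tested Hox gene was lowest of aged sham in it. Hoxa5 is overlapped by Hoxa3, by the read-through gene Gm28308, and by the antisense gene Hoxaas3 (6.85 ± 1.28 and 7.58 ± 0.674 CPM), and Hoxb5 by the antisense gene Hoxb5os (3.40 ± 0.749 and 3.65 ± 0.393 CPM), none of which was called.

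Within each library, the balance between paralogs differed between the groups more than the single genes of the Hox pair did. These 3 ratios were tested by an exact two-sided permutation test of log2 count ratios (126 ways to assign the libraries), a test added after the data were seen. The ratio of Hoxa5 to Hoxb5 in FPKM, which scales counts to gene length, was 1.86 to 1.99 in aged sham and 2.45 to 2.97 in aged bleo. The log2 ratio rose by 0.54, from 0.37 ± 0.041 (SD, n = 4) to 0.91 ± 0.11 (SD, n = 5), in the exact permutation test (p = 0.00794, adjusted over the 3 ratios 0.00794, the smallest that the design allows). Aged sham 2, the sham library with the highest level of both genes, had a ratio of 1.90, within the range of the others. The FPKM ratio of Tbx4 to Tbx5 was 0.861 to 1.04 in aged sham and 2.30 to 3.15 in aged bleo, a change of 1.48 in the log2 count ratio (exact permutation p = 0.00794, adjusted 0.00794). For Tbx2 to Tbx3, the FPKM ratio was 3.08 to 5.58 in aged sham and 6.05 to 8.19 in aged bleo, a change of 0.95 in the log2 count ratio (exact permutation p = 0.00794, adjusted 0.00794). In all 3 pairs the groups did not overlap, which as single genes was so for 32.2% of all genes tested. Tbx2, Tbx3, and Tbx4 were among those without overlap as single genes. How often the ratios of other gene pairs separate in this way was not computed.

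**Figure D3:**
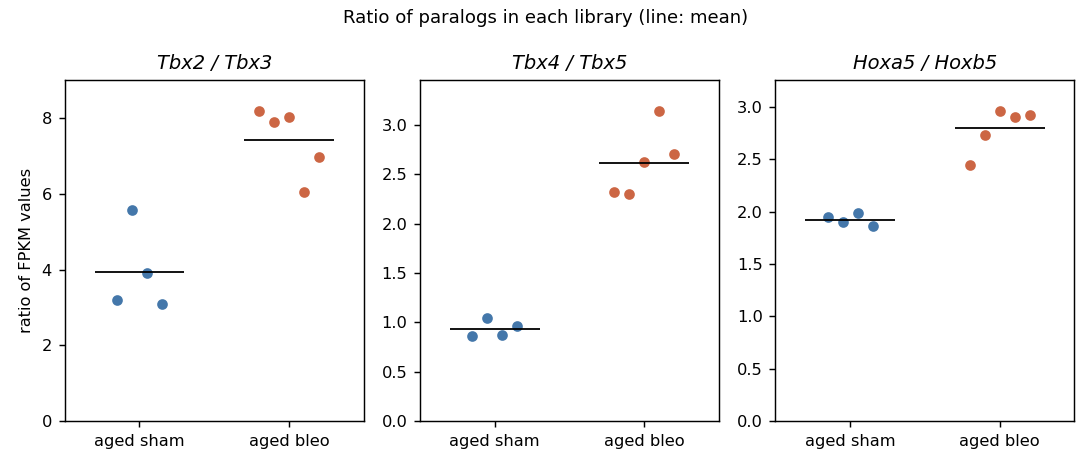
Ratio of the FPKM values of 2 paralogs (vertical axes, starting at 0) in each aged sham (blue) and aged bleo (orange) library, with the mean as a line. The groups do not overlap in any of the 3 ratios, and the Hoxa5 to Hoxb5 ratio of aged sham lies between 1.86 and 1.99.

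The order of the factors by level changed at its top. By FPKM, Tcf21 was the most abundant member in aged sham, at 36.5 ± 3.16 (SD, n = 4), followed by Meox2 (14.2 ± 1.51) and Gata6 (10.6 ± 0.168), and none of these 3 overlapped with the next in order. Below them, Foxf1 (7.88), Tbx2 (7.57), Tbx5 (5.72), Hoxa5 (5.39), and Tbx4 (5.37) overlapped with their neighbours in the order, and Hoxb5 (2.80) and Tbx3 (1.89) were the lowest. In aged bleo, Tbx2 was the most abundant, at 29.2 ± 3.51 FPKM (SD, n = 5), and did not overlap with the next. Tbx4 (18.0 ± 1.43) and Tcf21 (17.3 ± 6.21) followed and overlapped, and Meox2 (11.0), Foxf1 (8.15), Tbx5 (6.93), Hoxa5 (6.70), and Gata6 (5.51) each overlapped with the next, the last with Tbx3 (4.00). Hoxb5 (2.41) was the lowest and did not overlap with Tbx3. The T-box genes made up 18.4% to 24.96% of the FPKM summed over the members in aged sham and 45.1% to 63.0% in aged bleo, while the sum itself was 89.5 to 112 FPKM and 92.2 to 120 FPKM. In CPM, which is not scaled to length, the sum was 488 to 622 in aged sham and 647 to 820 in aged bleo, without overlap. The Tbx2 to Tcf21 ratio in FPKM was 0.155 to 0.283 in aged sham and 1.09 to 3.13 in aged bleo, so that Tcf21 was the higher in every sham library and Tbx2 in every aged bleo library.

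**Figure D4:**
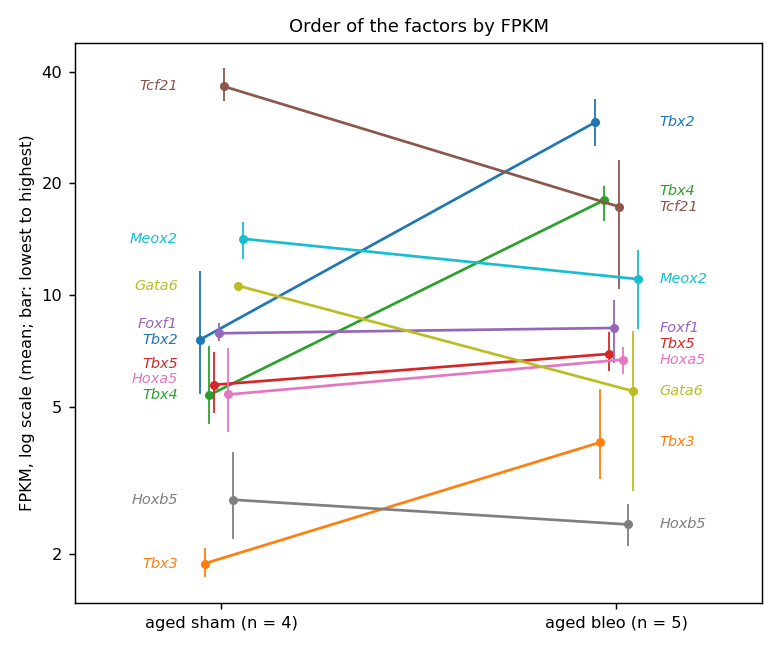
Mean FPKM of each factor (log scale) in aged sham and aged bleo, with lines joining the same factor and bars from the lowest to the highest library. Tbx2 goes from 7.57 to 29.2 FPKM and Tcf21 from 36.5 to 17.3 FPKM.

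Promoter sequence was searched because TCF21 and its partners bind E-boxes and the T-box, forkhead, GATA, and homeobox factors each prefer a known motif. RefSeq windows (GRCm38.p6) were at hand for 4 of 10 members, Tbx4, Tcf21, Hoxa5, and Meox2, and the 250 bases before the annotated start were read on both strands, with bases that lie in an annotated exon of the gene left out. The T-box letters searched, AGGTGTGA, were held by 1.12% of all 32851 promoter windows of that length. The E-box CAGCTG was held by 13% of these windows, which is the most frequent of the motifs. For the forkhead motif, the letters GTAAACA were held by 3.17%. The GATA motif was searched for as AGATAA, a run that 9.99% of the windows held. For homeobox factors, TAATTA was used and was held by 4.84%. The Tbx4 window, chr11:85896515-85896764 on the plus strand, precedes an alternative start inside the gene, in an intron of its longer transcripts, and held 1 E-box, in capitals.
Tbx4: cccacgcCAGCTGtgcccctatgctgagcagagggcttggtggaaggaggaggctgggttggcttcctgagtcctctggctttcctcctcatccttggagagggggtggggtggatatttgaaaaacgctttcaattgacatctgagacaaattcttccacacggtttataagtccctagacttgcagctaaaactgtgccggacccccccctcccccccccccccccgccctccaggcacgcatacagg
The Tcf21 window, chr10:22820175-22820393 on the minus strand, is shown as the promoter of the most abundant sham factor and held none of the motifs.
Tcf21: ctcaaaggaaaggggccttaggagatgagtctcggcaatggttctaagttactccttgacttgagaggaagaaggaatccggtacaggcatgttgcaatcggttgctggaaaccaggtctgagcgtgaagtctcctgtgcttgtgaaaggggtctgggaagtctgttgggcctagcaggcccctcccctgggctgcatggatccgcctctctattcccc
The Hoxa5 window held 1 E-box and the Meox2 window none. A match or its absence in these windows is a description of the letters and says nothing about binding.

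The other Hox genes were used to see whether the shift of Hoxa5 and Hoxb5 was shared along their clusters. Of the 39 Hox genes, 16 were tested, 3 rose (Hoxb7, Hoxb8, and Hoxd8), none fell, and 13 were not called, and 5 had no count in any library. All 16 tested genes but Hoxc4 and Hoxd8 belong to the Hoxa and Hoxb clusters. Along the Hoxb cluster, log2 fold changes ran from 0.43 in Hoxb2 over 0.08, -0.17, and -0.25 in Hoxb3, Hoxb4, and Hoxb5 to 0.26 in Hoxb6, 0.97 in Hoxb7, and 3.06 in Hoxb8. Hoxb8, which is normally used farther back along the body axis, rose from 0.529 ± 0.151 CPM (SD, n = 4) to 4.43 ± 1.99 CPM (SD, n = 5) with an FDR of 0.000730, and Hoxb7 rose from 3.55 ± 0.799 to 6.95 ± 1.73 CPM (FDR 0.0116). Hoxd8 was low in both groups (0.638 ± 0.177 and 1.22 ± 0.238 CPM, FDR 0.0170), and its call was lost by limma on log2(FPKM + 0.1) (0.56) and on log2(FPKM + 1) (0.12). In the Hoxa cluster none of the 7 tested genes was called, with Hoxa3 at -0.34 and Hoxa6 at 0.52 as the extremes; Hoxa6 was past the thresholds without aged sham 2 (0.67) or aged sham 3 (0.63). Among the TALE cofactors that bind DNA with HOX proteins, 1 of 8 tested was called, Pbx3, which rose from 8.91 ± 0.778 to 17.4 ± 3.19 CPM (log2 fold change 0.97, FDR 0.00158).

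**Figure D5:**
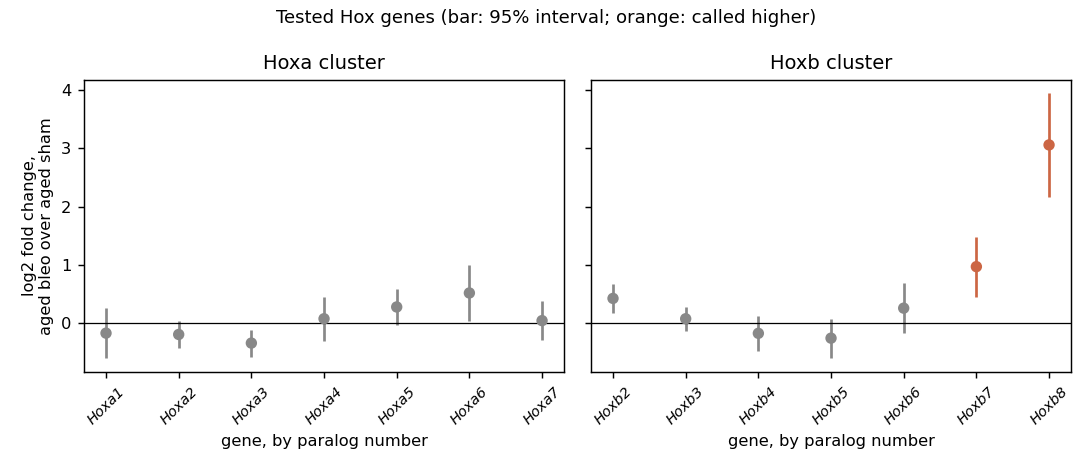
log2 fold change (points, aged bleo over aged sham) with its 95% interval (lines) for the tested genes of the Hoxa and Hoxb clusters, in order of paralog number, with called genes in orange. The Hoxa genes lie between -0.34 and 0.52, and Hoxb7 and Hoxb8 lie at 0.97 and 3.06.

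Relatives of the other members moved in both directions. In the T-box family, 8 of 17 genes were tested, with 3 higher and 2 lower, and the 2 that fell were Tbx18, a factor of mural and epicardial mesenchyme (12.7 ± 2.34 to 7.29 ± 2.32 CPM, log2 fold change -0.81, FDR 0.0342), and Tbx20, a cardiac factor (17.6 ± 15.1 to 3.98 ± 2.51 CPM, log2 fold change -2.15, FDR 0.0276). Tbx20 stood at 40.2 CPM in aged sham 1 and at 8.93 to 11.8 CPM in the other sham libraries, and leaving out aged sham 1 gave -1.35 (FDR 0.0921). In the GATA family, 5 of 6 were tested, and Gata2 rose from 1.31 ± 0.206 to 17.0 ± 15.0 CPM, with aged bleo libraries from 3.14 to 33.8 CPM (log2 fold change 3.69, FDR 0.00572). Gata5 was called higher (16.5 ± 6.18 to 26.9 ± 8.15 CPM, log2 fold change 0.70, FDR 0.0762) with overlapping groups, and its call was lost without aged sham 1, 3, or 4 or without aged bleo 1, 2, or 3 (0.58 to 0.73). Gata6 was the only GATA gene called lower. Gata3 (log2 fold change -0.57) and Gata4 (-0.50) also had estimates below 0 and were not called.

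Among the 9 forkhead genes, all tested, Foxf2 rose where its paralog Foxf1 did not pass. Foxf2 rose from 16.0 ± 2.93 CPM (SD, n = 4) to 81.1 ± 15.3 CPM (SD, n = 5), with 60.0 CPM in the lowest aged bleo library and 19.8 CPM in the highest sham library (log2 fold change 2.34, SE 0.17, FDR 4.08e-05). Foxl1, which like the FOXF factors responds to hedgehog signals, rose from 6.12 ± 0.222 to 14.0 ± 1.53 CPM (log2 fold change 1.19), and Foxp4 rose from 61.6 ± 6.33 to 112 ± 7.40 CPM (0.87). Foxc1 (-1.42), Foxp2 (-1.59), and Foxd1 (-1.45) fell, of which Foxd1 had overlapping groups and lost its call without aged sham 1, 3, or 4 or aged bleo 3 or 4 (-1.25 to -1.46) and with a replicate block (-1.22). Of the relatives and partners of TCF21, the close relative Msc fell from 9.59 ± 0.980 to 5.20 ± 1.84 CPM (log2 fold change -0.88, FDR 0.0240) and Tcf24 from 8.33 ± 1.56 to 3.30 ± 1.31 CPM (-1.34, FDR 0.00988). None of the E-proteins with which such factors pair was called lower, as Tcf4 rose from 165 ± 10.2 to 277 ± 20.9 CPM (0.74, FDR 0.000296) and Tcf12 had a log2 fold change of 0.56, under the fold threshold in full but past it without aged sham 1 (0.62) or aged bleo 4 (0.59) and by limma on log2(FPKM + 0.1) (0.59).

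Of 13 tested signals and targets tied to these factors, 2 were higher and 1 lower, a share near the 23.8% called among all genes tested. Fgf10, the target of TBX4 and TBX5, averaged 78.3 ± 4.64 CPM (SD, n = 4) in aged sham against 81.2 ± 7.77 CPM (SD, n = 5) after bleomycin (log2 fold change 0.05, FDR 0.662). Of the cell cycle inhibitors, Cdkn2a and its neighbour Cdkn2b were higher in aged bleo. Cdkn2a, which encodes p16 and p19ARF and is a known target of repression by TBX2 and TBX3, rose from 1.56 ± 0.800 to 7.64 ± 1.52 CPM (log2 fold change 2.29, FDR 0.00179), and Cdkn2b from 3.06 ± 0.626 to 8.88 ± 0.641 CPM (1.54, FDR 0.000147). Cdkn1a, which encodes p21, was at 135 ± 15.4 and 130 ± 15.5 CPM and was not called (FDR 0.731). Wnt2b, a mesenchymal Wnt ligand of the early lung field, fell from 49.3 ± 1.90 to 10.4 ± 6.61 CPM (log2 fold change -2.25, FDR 0.00576). Wnt2 (0.47) and Wnt5a (-0.34) were not called, nor were Bmp4 (-0.30) and the hedgehog receptor and target Ptch1 (0.50) or Gli1 (-0.41). Of these, Ptch1 and Wnt5a had no overlap between the groups, nor did Gli2 (0.29), which was not called either. Among all genes tested, 32.2% had no overlap.

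Among factors of the mesenchyme of other organs, 1 was called lower and none higher. Barx1, a factor of stomach mesenchyme, was at 1.32 ± 0.667 and 0.350 ± 0.227 CPM (log2 fold change -1.93, FDR 0.0233). Over the Hox, T-box, GATA, forkhead, TALE, helix-loop-helix, MEOX, signal, and other-organ lists, 21 of the 59 tested genes that are not members were called (35.6%, against 23.8% of all genes tested). The lists, too, were chosen with earlier results of these data known, so this share is no test of them.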

How the data were processed

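The 9 RNA-Seq libraries of sorted lung fibroblasts were grouped by their sample labels (4 aged sham, 5 aged bleo), and all were used. The authors deposited read counts per gene, whole numbers without normalization, and FPKM values, which the authors scaled to gene length and library size. The library totals implied by the FPKM values were 2.27 to 2.42 times the summed counts. FPKM levels are therefore lower than the summed counts and gene lengths would give. Per the labels, STAR 2.5.2b and featureCounts of Subread were used with GRCm38. Whether counting used strand is not given in the sources used here. The kit does not mark strand.

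Genes averaging 25 or more counts over the libraries were tested with edgeR 4.0.16 (TMM, glmQLFit, and glmQLFTest) in R 4.3.3 without covariates, on all 9 libraries. The study's methods give the count filter and the thresholds, and name a moderated test, which was run as an alternative (limma 3.58.1). The standard error is that of the fitted log2 fold change. CPM was computed after TMM normalization, with a prior count of 2 for log2 profiles. Levels of different genes were compared by FPKM. The scripts were tested on simulated counts. No 2 libraries of a group agreed within counting noise (chi-square per degree of freedom 20.5 to 286). The labels number the libraries within each group. The study's methods describe plotted data points as independent mice or as replicates of cell culture.

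The members and lists were chosen with earlier results of these data known. All members were named. Other named genes were taken from the called or abundant genes of the lists, genes overlapping a member or within 2 kb of it, and the gene and member nearest in profile. Not every gene of these kinds is given. Alternatives were DESeq2 1.42.0, limma on TMM log2 CPM and on log2(FPKM + 0.1) and log2(FPKM + 1), RLE or library-size scaling, stricter thresholds, no filter, a filter of 10 counts in all libraries, a robust fit, a replicate block, and each library left out. Protein sequences were not used here.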

Additional observations from a re-analysis of the deposited data

Results flagged for a closer look

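Among the 4 aged sham libraries, a single library stood apart from the rest of its group in 4 of the genes named, by the ratio of its gap to the group's range, a criterion that chance alone meets in about 1 in 20 groups. It was applied to 100 groups (50 genes in aged sham and in aged bleo), so that 4 is no more than chance gives. None of the 10 factors was among them. Tbx20 was at 40.2 CPM in aged sham 1 and at 11.8 CPM in the next highest sham library. Gata5 was at 25.6 CPM in aged sham 2 and at 14.7 CPM in the next. Foxl1 was at 6.45 CPM in aged sham 4 and at 6.02 CPM in the next, a small difference within a narrow range. Ptch1 was at 125.8 CPM in aged sham 2, below the other sham libraries at 147.9 CPM and above.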

How the results depend on the processing

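The 3 factors called higher were called in all 20 alternatives, and the 2 called lower in all but the stricter thresholds (FDR under 0.05 and fold change over 2), where 1 remained. Of 190 values of members over the alternatives, 186 kept their direction and their call, and the other 4 were of Foxf1. The log2 fold change of Foxf1 was -0.0018 by limma on log2 CPM and -0.0634 to 0.0905 with each library left out. The FDR alone crossed 0.10 in some alternatives for Tbx5, Hoxa5, Hoxb5, and Meox2, whose fold changes stayed under the fold threshold. Without aged sham 2, the FDR was 0.0470 for Tbx5 and 0.0186 for Hoxa5. It was 0.0951 for Hoxb5 without aged sham 1 and 0.201 for Meox2 with a replicate block. Counts of genes called fell to 1785 (lists 12) by limma on log2(FPKM + 1) and to 2158 (lists 12) under the stricter thresholds; with a library left out, they ranged from 3525 to 4597 (lists 19 to 23). For Cdkn1a, the log2 fold change was -0.0969 to 0.0258 with a library left out. limma on log2(FPKM + 1) also took Hoxb7, Hoxd8, Tbx18, Gata5, Foxd1, Pbx3, Msc, Tcf24, Barx1, 2610027K06Rik, and 1010001N08Rik under the fold threshold.

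With replicate numbers as a replicate block, 3536 genes were called, with 3 members higher and 2 lower, and Cdkn1a was at 0.0220. Same-numbered libraries of the groups shared no consistent deviation (correlations 0.0922, 0.0623, -0.13, and 0.326), so the numbers were not taken to pair the mice. With 8646 or more counts per member, the spread between mice sets the precision rather than depth. Library names end in a number whose meaning is not stated; aged bleo 4 alone shares that of aged sham, and its log2 ratio to the sham mean was 2.06 for Tbx2, 1.77 for Tbx4, 1.47 for Tbx3, -1.85 for Tcf21, and -1.94 for Gata6.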
